A study of Mus musculus with 9 samples.

Results

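Potassium channel genes were read in the chromatin of a mouse T cell lymphoma. The members are the protein-coding RefSeq genes of GRCm38.p6 whose symbols start with Kcn, 94 of 21883 protein-coding genes on 21 chromosomes. Cells came from the thymus of C57BL/6J mice carrying a MYCN-driven T cell lymphoma, and they were profiled by ChIPmentation, a chromatin immunoprecipitation in which a transposase adds the sequencing adapters to antibody-bound chromatin. Antibodies against EZH2, SUZ12, H3K27me3, N-MYC, p300, H3K27ac and H3K4me3 gave 1 peak list each, and 2 input libraries were not used here. There is 1 library per antibody, no tumour-free tissue is compared, and the labels do not say which animal gave which immunoprecipitation, so no value has a replicate check. A peak is a site that passed the authors' threshold, and a gene without a peak had no call, which does not show that the protein or mark was absent.

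Potassium channels let potassium leave the cell and so set the membrane potential. In lymphocytes the voltage-gated channel encoded by Kcna3 and the calcium-activated channel encoded by Kcnn4 are the main ones, and by keeping the membrane negative they sustain calcium entry through Orai channels after antigen receptor signals. Most other members are known from neurons, heart, muscle and secretory epithelia. EZH2 is the enzyme and SUZ12 a core subunit of Polycomb repressive complex 2, which deposits H3K27me3 at silent developmental genes, whereas H3K4me3 and H3K27ac mark active promoters, p300 acetylates H3K27, and N-MYC is the MYC-family factor that drives these tumours.

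A transcription start on a known strand was listed for 69 of the 94 members and for 17491 of the protein-coding genes, and a gene was counted for a list when a peak overlapped the window of 1 kb either side of any of its listed starts by at least 1 bp. The other 25 members, among them Kcna1, Kcnj11 and Kcnn2, were read over the gene body and at both gene ends instead. The value of a peak is its fold enrichment, a linear ratio set by the authors' peak caller, and it ranks peaks within 1 list only. Starts were sorted by the marks there: active marks are H3K4me3 or H3K27ac, Polycomb marks are SUZ12 or H3K27me3, and EZH2, N-MYC and p300 took no part in the sorting.

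The 250 bases before the start of both lymphocyte channels are shown beside those of a related member with Polycomb marks at its start: Kcna2, a close relative of Kcna3 on the same chromosome, which had both kinds of marks, and Kcnn3, a small-conductance channel of the Kcnn4 family, which had Polycomb marks only. All are RefSeq sequences of GRCm38.p6 on the plus strand, at chr3:107035912-107036161 for Kcna3, chr3:107101317-107101566 for Kcna2, chr7:24370013-24370262 for Kcnn4 and chr3:89519914-89520163 for Kcnn3. Capitals mark CG dinucleotides.
Kcna3: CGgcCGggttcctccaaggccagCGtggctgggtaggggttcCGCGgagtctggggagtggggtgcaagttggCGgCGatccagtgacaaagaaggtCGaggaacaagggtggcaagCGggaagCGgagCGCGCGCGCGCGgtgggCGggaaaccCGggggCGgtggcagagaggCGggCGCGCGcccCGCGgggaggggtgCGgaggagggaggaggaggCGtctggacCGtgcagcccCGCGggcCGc
Kcna2: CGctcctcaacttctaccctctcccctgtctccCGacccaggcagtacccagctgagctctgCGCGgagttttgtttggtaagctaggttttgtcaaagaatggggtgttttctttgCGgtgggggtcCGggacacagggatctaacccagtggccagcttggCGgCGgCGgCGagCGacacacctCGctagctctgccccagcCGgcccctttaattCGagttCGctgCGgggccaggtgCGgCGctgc
Kcnn4: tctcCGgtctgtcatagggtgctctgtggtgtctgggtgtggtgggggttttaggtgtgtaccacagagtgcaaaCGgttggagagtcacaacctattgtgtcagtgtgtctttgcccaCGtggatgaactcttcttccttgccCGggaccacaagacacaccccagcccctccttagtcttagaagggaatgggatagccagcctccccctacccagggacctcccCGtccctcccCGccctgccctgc
Kcnn3: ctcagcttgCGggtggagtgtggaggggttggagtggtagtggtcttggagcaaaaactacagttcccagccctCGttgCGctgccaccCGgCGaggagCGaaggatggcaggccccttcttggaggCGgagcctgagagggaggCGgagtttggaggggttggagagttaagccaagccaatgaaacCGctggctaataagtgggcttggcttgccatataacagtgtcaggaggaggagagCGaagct
Kcna3 holds 31 CG dinucleotides in these 250 bases and Kcnn4 holds 6, and yet both starts carried broad active marks without Polycomb marks. Kcna2 holds 18 and Kcnn3 holds 10, and both carried H3K27me3, at Kcna2 beside weaker active marks.

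Kcna3 had peaks in 4 of the 7 lists. Fold enrichment at its start was 8.60 for EZH2, 8.13 for p300, 10.4 for H3K27ac and 45.7 for H3K4me3, and there was no N-MYC, SUZ12 or H3K27me3 peak. Its H3K4me3 peak was the strongest of the 13 at member starts and the widest, at 7547 bp. It was stronger than 98.8% and wider than 99.5% of the H3K4me3 peaks that represent all genes with one. The p300 peak was also the strongest and the widest among the 6 members that had one, and spanned 3017 bp, but its summit lay 2708 bp downstream of the start, outside the window. Its EZH2 peak ranked eighth of 34 members by fold. The H3K27ac peak of Kcna3 ranked 4th of 14 members, and was stronger than only 38.4% of those of all genes.

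Kcnn4 had peaks in 5 lists, with fold enrichment of 40.7 for H3K4me3, 25.2 for H3K27ac, 9.06 for EZH2, 6.15 for p300 and 3.60 for N-MYC. SUZ12 and H3K27me3 had no peak there. Its H3K27ac peak was the strongest and widest of the 14 at member starts, at 7770 bp, and stood above 94.7% of the H3K27ac peaks of all genes by fold. The H3K4me3 peak spanned 6562 bp and ranked second after Kcna3, and the third was 29.5, at Kcnq5. No other member had an H3K4me3 peak wider than 3825 bp. The N-MYC peak was the weakest of the 7 at member starts and stronger than 4.69% of those of all genes, and it was 239 bp wide with its summit 213 bp before the start.

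**Figure D1:**
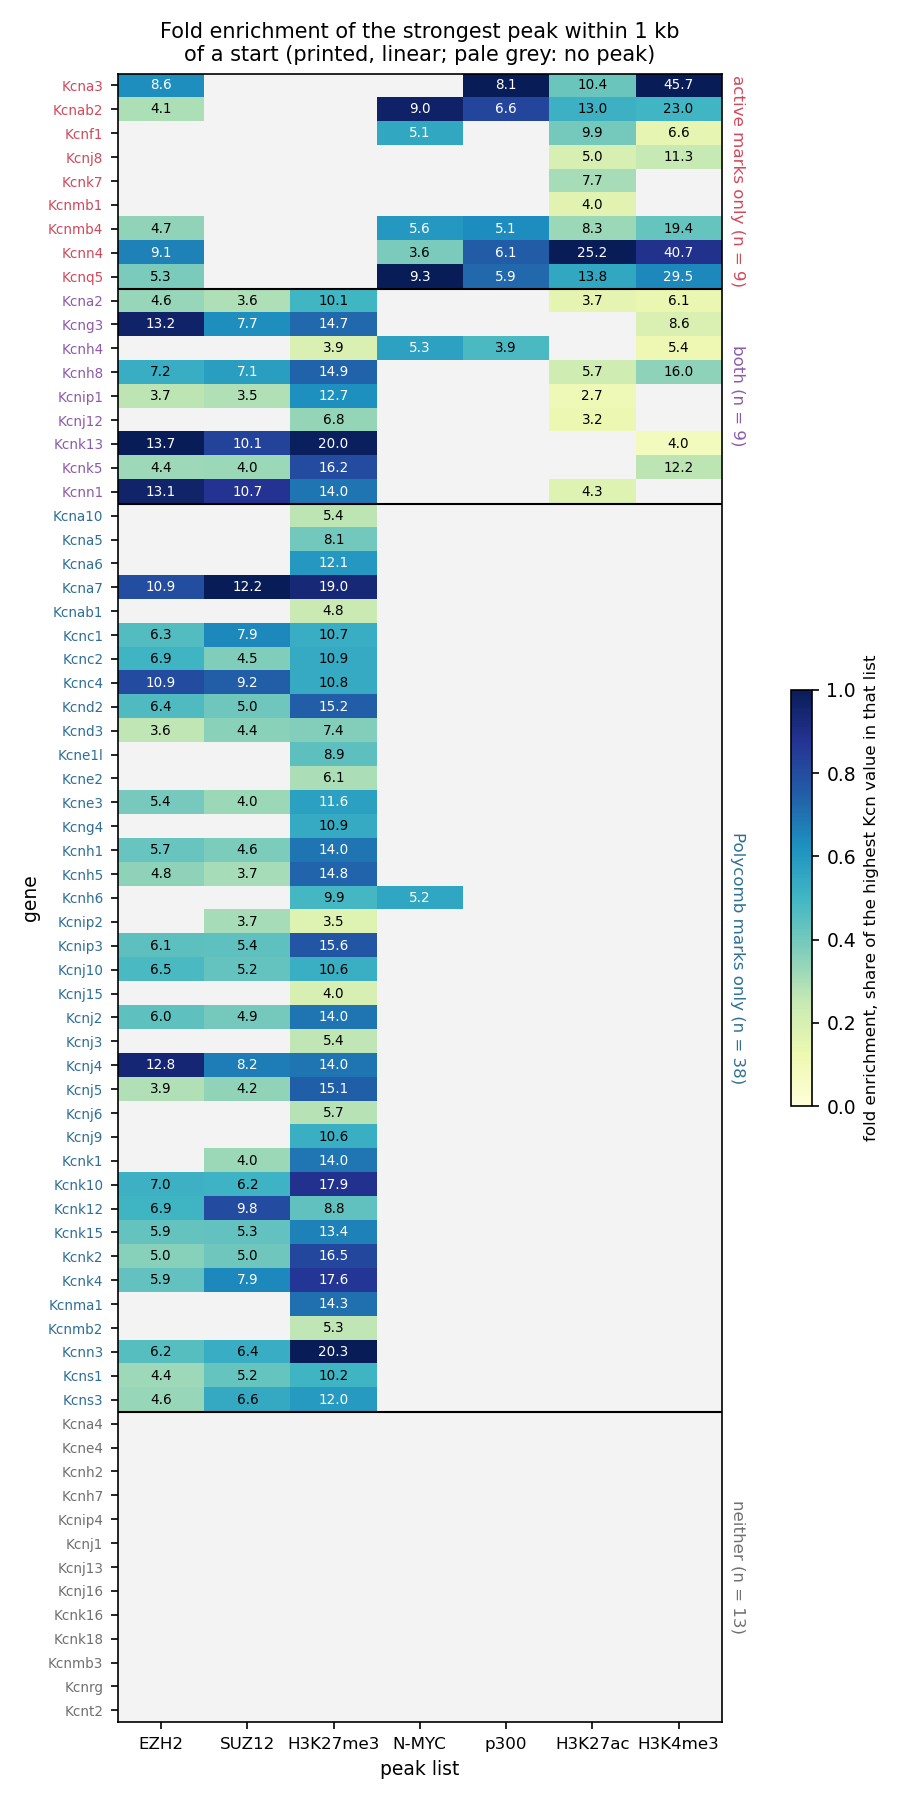
Fold enrichment (linear) of the strongest peak within 1 kb of a start for the 69 members with a listed start (y axis) in the 7 lists (x axis), grouped by the marks at the start. Colour is scaled to the highest member value within each list, and pale grey cells had no peak. Kcna3 and Kcnn4 hold the highest H3K4me3 values, 45.7 and 40.7. Of the 38 starts with Polycomb marks only, all had H3K27me3, as did all 2833 such starts over all genes. SUZ12 was at 24 of the 38 (63.2%, 47.3 to 76.6, against 46.9% over all genes). EZH2 was at 22 (57.9%, 42.2 to 72.1, against 44.97%).

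The promoter of Kcnn4 holds 1 CACGTG, the E-box that MYC-family dimers bind (caCGtg in the sequence of Kcnn4 as capitalised above), 133 bp before the start. It lay inside the N-MYC peak, 80 bp from the summit. CACGTG, which reads the same on both strands, was searched in the 300 bases from 250 before to 50 after the first listed start, and 5 members held it (7.25%, against 7.91% of all promoters of the same length). Of the 7 members with an N-MYC peak, Kcnn4 and Kcnh4 held it, and of the 62 without a peak, 3 did. Over all genes the share was 12.9% with an N-MYC peak and 5.36% without. A match is a description of the letters and not a bound site.

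Kcna3 and Kcnn4 were not alone among the members in their marks. Active marks without Polycomb marks were found at 9 of 69 starts (13.0%, 95% Wilson interval 7.02 to 23.0, against 47.4% of all genes). Intervals here treat genes as the counted units and do not cover variation between tumours. The same 5 lists as at Kcnn4 had peaks at Kcnq5, Kcnab2 and Kcnmb4. Kcnq5, which encodes a voltage-gated channel of the M-current type, had H3K4me3 at 29.5, H3K27ac at 13.8, N-MYC at 9.33, p300 at 5.90 and EZH2 at 5.25. Kcnab2, the cytoplasmic beta subunit that binds Kcna-type channels, had 23.0, 13.0, 9.03, 6.64 and 4.05 in the same order. Kcnmb4, a beta subunit of the large-conductance calcium-activated channel, had 19.4, 8.26, 5.61, 5.15 and 4.70. These 3 genes thus had more N-MYC enrichment than Kcnn4 and less H3K4me3, H3K27ac and EZH2 enrichment, and Kcna3 had no N-MYC peak at all. One window of Kcnab2 is shared with the start of Nphp4, so peaks there cannot be assigned to either gene.

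The 4 further starts with active marks only carried less. Kcnf1, a modifier subunit that is silent alone, had N-MYC at 5.14, H3K27ac at 9.94 and H3K4me3 at 6.62, without EZH2 or p300. Kcnj8, the pore subunit of an ATP-sensitive channel of blood vessels, had H3K27ac at 4.96 and H3K4me3 at 11.3. Kcnk7 and Kcnmb1 had an H3K27ac peak and nothing else, at 7.71 and 4.04. Kcnmb1 lies within Kcnip1, and its window therefore also holds a part of that gene.

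Most starts of the family carried the opposite marks. H3K27me3 had a peak at 47 of 69 member starts (68.1%, 56.4 to 77.9, against 24.3% of all genes), and SUZ12 at 31 (44.9%, 33.8 to 56.6, against 12.8%). EZH2 was at 34 starts (49.3%, 37.8 to 60.8), close to the 46% over all genes. The 4 lists of the active side were sparser than over all genes. N-MYC was at 7 member starts (10.1%, 5.0 to 19.5, against 34%), p300 at 6 (8.70%, 4.05 to 17.7, against 40.6%), H3K27ac at 14 (20.3%, 12.5 to 31.2, against 52.2%) and H3K4me3 at 13 (18.8%, 11.4 to 29.6, against 52.1%). By state, 38 starts had Polycomb marks only (55.1%, 43.4 to 66.2, against 16.2%), 9 had both kinds (13.0%, 7.02 to 23.0, against 8.16%) and 13 had neither (18.8%, 11.4 to 29.6, against 28.2%). Leaving out Kcna3 and Kcnn4, H3K27me3 stood at 70.1% and H3K4me3 at 16.4% of the other 67. When each list kept only the 9798 peaks of lowest q-value, as many as the shortest holds, H3K27ac was at 5.80% of member starts and 35.6% of all, and H3K4me3 at 10.1% and 45.9%. Starts with both kinds of marks were then 2.90% of members and 2.60% of all genes, so the 2 shares were close, and those with neither 34.8% and 39.5%.

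**Figure D2:**
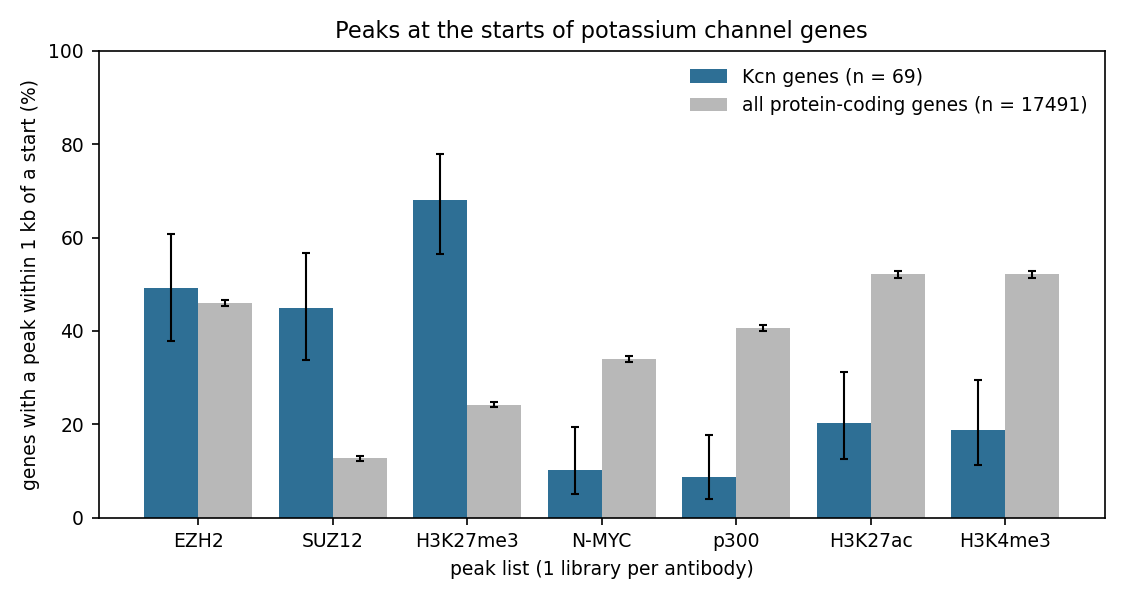
Share of genes (%) with a peak within 1 kb of a listed start in each of the 7 lists, for the 69 Kcn genes and for all 17491 protein-coding genes with a listed start, with 95% Wilson intervals over genes. H3K27me3 reached 68.1% of member starts and H3K4me3 18.8%, against 24.3% and 52.1% of all genes.

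EZH2 was thus found at a similar share of starts in the family and in all genes, but beside other proteins. Of the 34 member starts with EZH2, 29 also had SUZ12 and 29 had H3K27me3 (85.3% each), against 25.8% and 29.2% of all EZH2 starts. The 5 with neither (14.7%, 6.45 to 30.1, against 70.7% of all EZH2 starts) were Kcna3, Kcnn4, Kcnq5, Kcnab2 and Kcnmb4. For Kcnmb4 this rests on the edge of the window, since an H3K27me3 peak of 5.37 lay within 1 kb of the outer end of the gene, 336 bp from the listed start. Counted as peaks, 59 separate EZH2 peaks lay at member starts. Some genes, such as Kcnk10, held several of them, and EZH2 peaks of all genes were not counted in this way. Of the 59, 51 touched a SUZ12 or H3K27me3 peak, none of the 51 touched an N-MYC peak, 1 touched a p300 peak and 7 an H3K4me3 peak. The other 8 EZH2 peaks all touched H3K27ac and H3K4me3 peaks, and 7 touched N-MYC and 7 p300. Median fold enrichment was 5.03 (2.83 to 13.7) in the first set and 4.38 (3.31 to 9.06) in the second, so the ranges overlapped.

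The strongest EZH2 peaks of the family lay at starts with SUZ12 and H3K27me3. Kcnk13, a background potassium channel of microglia, was highest with EZH2 at 13.7, SUZ12 at 10.1 and H3K27me3 at 19.97. Kcng3, a modifier subunit, had 13.2, 7.70 and 14.7 in these lists. Kcnn1, a small-conductance calcium-activated channel of neurons, had 13.1, 10.7 and 14.0. Kcnj4, an inward rectifier, had 12.8, 8.21 and 14.0, and Kcnc4, a fast voltage-gated channel, had 10.9, 9.19 and 10.8. The EZH2 value at each of these 5 genes lies above the EZH2 fold of Kcnn4 and Kcna3. Kcna7, a relative of Kcna3 known from muscle, had EZH2 at 10.9, the highest SUZ12 value of the family at 12.2, and H3K27me3 at 18.96. Kcnk10, a mechanically gated background channel, had 7.03, 6.20 and 17.9. Kcnn3 had the highest H3K27me3 value, 20.3, with EZH2 at 6.22 and SUZ12 at 6.45.

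H3K27me3 was the wider of the Polycomb features. All 31 SUZ12 starts had an H3K27me3 peak, as did 2215 of the 2232 SUZ12 starts of all genes. SUZ12 was at 66.0% of the 47 member starts with H3K27me3 and EZH2 at 61.7%. Over all H3K27me3 starts the shares were 52.2% and 55.3%. At 16 member starts H3K27me3 lay without SUZ12 or EZH2, and the share of such starts was not taken over all genes. Among these were Kcna5 at 8.07, Kcna6 at 12.1 and Kcnma1, the pore of the large-conductance calcium-activated channel, at 14.3. H3K27me3 peaks at member starts had a median width of 6178 bp (206 to 31306), against 3941 bp over all genes. SUZ12 peaks went the other way, with 1616 bp against 2181 bp. EZH2 peaks spanned 1588 bp against 759 bp, but 1588 bp against 1987 bp at starts with Polycomb marks only. The widest H3K27me3 peak, of 31306 bp, covered the starts of both Kcnj9 and Kcnj10, neighbouring inward rectifiers, and these 2 members share that 1 peak. At the first listed start itself 53.6% of members lay under an H3K27me3 peak, and 60.9% did at 500 bp downstream, against 16.7% of all genes at the start. At 5 kb downstream the share was still 29.0% for members and 9.63% for all genes.

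**Figure D3:**
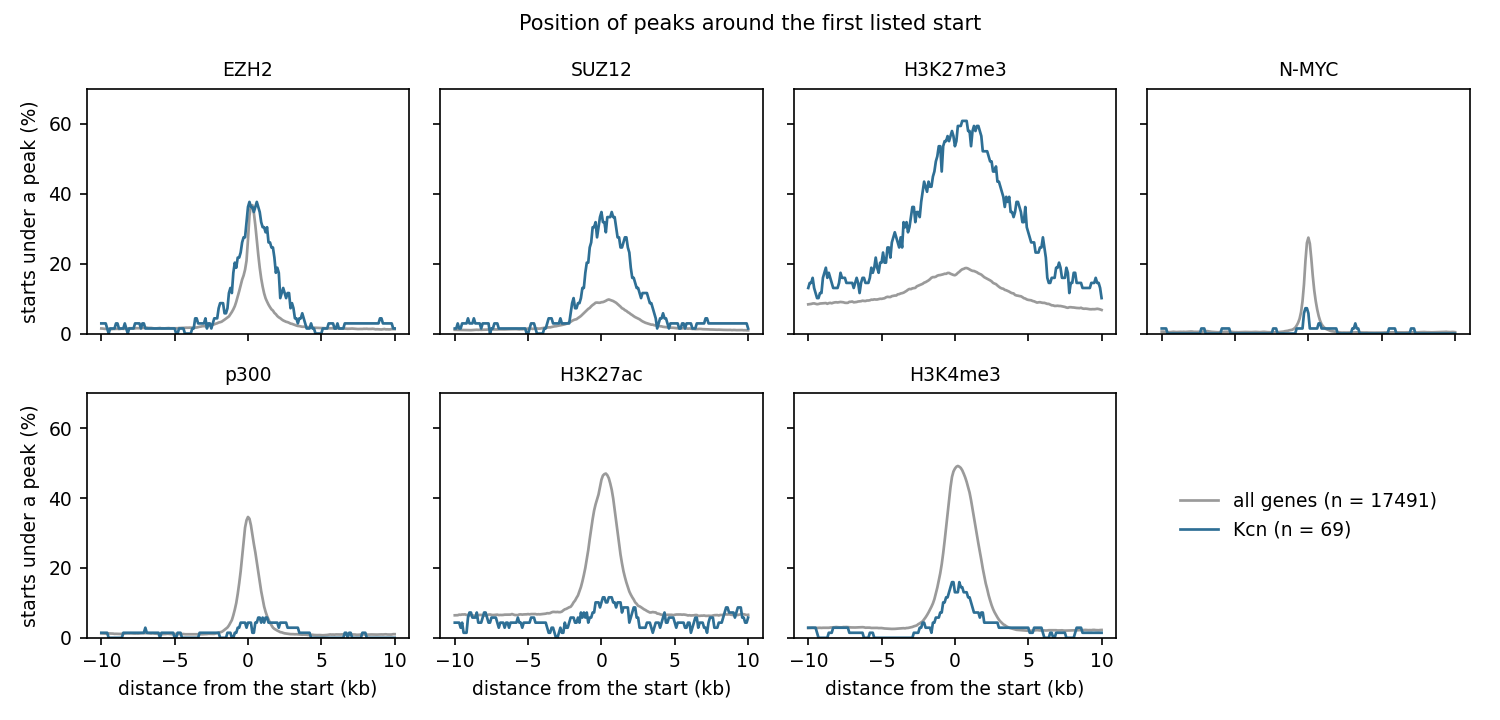
Share of starts (%, y axis) that lay under a peak at each distance (kb, x axis) from the first listed start, for 69 Kcn genes and 17491 genes, in the 7 lists. H3K27me3 over Kcn genes rose to 60.9% near the start and stayed above all genes at 5 kb, while the N-MYC, p300, H3K27ac and H3K4me3 lines of Kcn genes lay below those of all genes at the start.

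Starts with both kinds of marks numbered 9. Of the 6 with H3K4me3 and H3K27me3, Kcnh8, a voltage-gated channel of neurons, had the highest H3K4me3 value at 16.0. H3K27me3 was there at 14.9, EZH2 at 7.22, SUZ12 at 7.06 and H3K27ac at 5.71. The H3K4me3 peak of Kcnh8 overlapped its H3K27me3 peak but ended before the start, with its summit at -1413 bp, outside the window. Its H3K27ac summit also lay upstream of the window, and neither active mark had a peak in the gene body. The window of Kcnh8 also holds a part of a noncoding gene. Kcnk5, an acid-sensitive background channel, followed with H3K4me3 at 12.2 beside H3K27me3 at 16.2. Kcng3 had H3K4me3 at 8.61, Kcna2 at 6.15, Kcnh4 at 5.36 and Kcnk13 at 3.97. Each of these values was under the lowest H3K4me3 value among the 5 EZH2 starts without Polycomb marks, 19.4 at Kcnmb4. Kcnh4 differed from the other 5 in having N-MYC at 5.29 and p300 at 3.88 and no EZH2 or SUZ12, with a weak H3K27me3 peak of 3.86. The 3 others, Kcnip1, Kcnn1 and Kcnj12, had H3K27ac between 2.68 and 4.34 and no H3K4me3. At Kcnip1 and Kcnn1 the H3K27ac peak and the Polycomb peaks lay at different listed starts of the gene, and with the most upstream listed start alone 7 members had both kinds. The outer end of Kcnn1, 2433 bp from its nearest listed start, did have both kinds together. H3K4me3 was at 13.6 there, p300 at 9.75, H3K27ac at 3.99 and H3K27me3 at 14.0. Where both lay at 1 start, marks on the same chromosomes and marks in different cells cannot be told apart. The seventh N-MYC start, Kcnh6, had H3K27me3 at 9.94 and N-MYC at 5.17 without active marks, and its window also holds a part of Ace3. That H3K27me3 peak spanned 15991 bp with its summit 10981 bp downstream of the start, and it did not overlap the N-MYC peak. The body of Kcnh6 held 4 H3K27ac peaks, up to 18.3, and 2 H3K4me3 peaks, up to 8.76.

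By channel class the counts ran as follows. Of the voltage-gated pore subunits, 20 of 30 had a listed start, and 2 had active marks only (Kcna3 and Kcnq5), 3 both, 12 Polycomb marks only and 3 neither. Of the modifier subunits, which join other voltage-gated subunits, 5 of 10 had a start, with 1, 1, 3 and 0 in that order. Calcium- or sodium-activated channels, with 5 of 8, had 1 (Kcnn4), 1, 2 and 1. Inward rectifiers, which carry the resting current of muscle and glia, had 1, 1, 8 and 3 of 13 starts, and no N-MYC or p300 peak. The background channels of the Kcnk group, the two-pore-domain class, with 11 of 14, had 1, 2, 6 and 2, and again no N-MYC or p300 peak. Auxiliary and interacting subunits, with 15 of 17, had 3, 1, 7 and 4. Polycomb marks alone were therefore the most frequent state in each of the 6 classes, and active marks alone occurred in each of them.

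**Figure D4:**
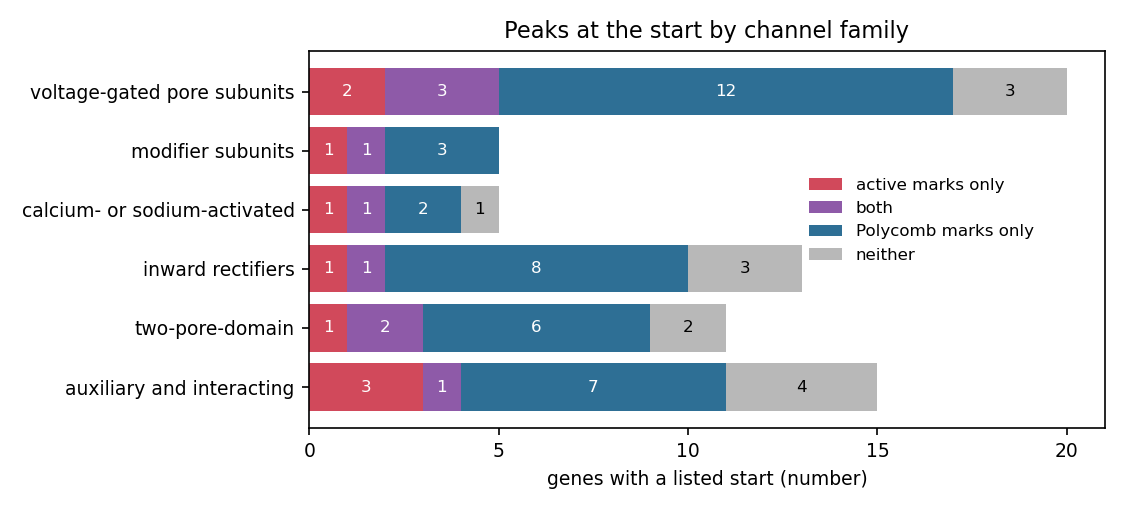
Number of genes with a listed start (x axis) in 6 channel classes (y axis), divided by the marks within 1 kb of the start. Starts with Polycomb marks only form the longest segment in each class, with 12 of 20 among voltage-gated pore subunits and 8 of 13 among inward rectifiers.

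The 13 starts with neither kind of mark had no peak of any list in the window. They were Kcna4, Kcnh2 and Kcnh7 among voltage-gated channels, Kcnt2 among sodium-activated ones, Kcnj1, Kcnj13 and Kcnj16 among inward rectifiers, Kcnk16 and Kcnk18, and the auxiliary genes Kcne4, Kcnip4, Kcnmb3 and Kcnrg. The outer end of Kcnh2, 22093 bp from its listed start, had both kinds, with H3K27me3 at 7.45 and H3K4me3 at 6.89. That of Kcnj1, 21567 bp from its listed start, had H3K27me3 at 4.39. The ratio of observed to expected CG dinucleotides over the 300 bases had a median of 0.438 at the 69 member starts and 0.577 at all starts. At starts with neither mark it was 0.324 among members and 0.162 among all genes. Among starts with active marks only, the members had a median of 0.414 and all genes 0.779. With Polycomb marks only the medians were 0.504 and 0.492, and with both kinds 0.643 and 0.757. The order of the states thus differed between members and all genes, and the ranges of the members overlapped widely, from 0.0548 to 1.04 with active marks only and from 0 to 1.04 with Polycomb marks only. Kcnn4 at 0.226, Kcnq5 at 0.189 and Kcnf1 at 0.145 were low, and Kcna3 at 0.952, Kcnab2 at 0.850 and Kcnmb4 at 1.04 were high.

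Kcna3, Kcna2 and Kcna10 lie in this order on chromosome 3, with the start of Kcna2 65.4 kb and that of Kcna10 147 kb from the start of Kcna3. Kcna2, a channel of axons, had H3K27me3 at 10.1, EZH2 at 4.56, SUZ12 at 3.57, H3K27ac at 3.75 and H3K4me3 at 6.15. Kcna10 had only H3K27me3, at 5.39. No H3K27me3, SUZ12 or N-MYC peak lay within 50 kb of the start of Kcna3. Outside its start window, the same 50 kb held 6 H3K27ac peaks, the strongest at 12.3 with its summit 43.9 kb downstream. That peak was stronger than the H3K27ac peak at the start of Kcna3 itself, and it lies between Kcna3 and Kcna2. The outer end of Kcna2, 10684 bp upstream of its listed start, had active marks only, with H3K27ac at 5.71 and no H3K4me3 peak. An N-MYC peak of 3.87 also lay there, 54.0 kb from the start of Kcna3 and so just beyond the 50 kb.

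**Figure D5:**
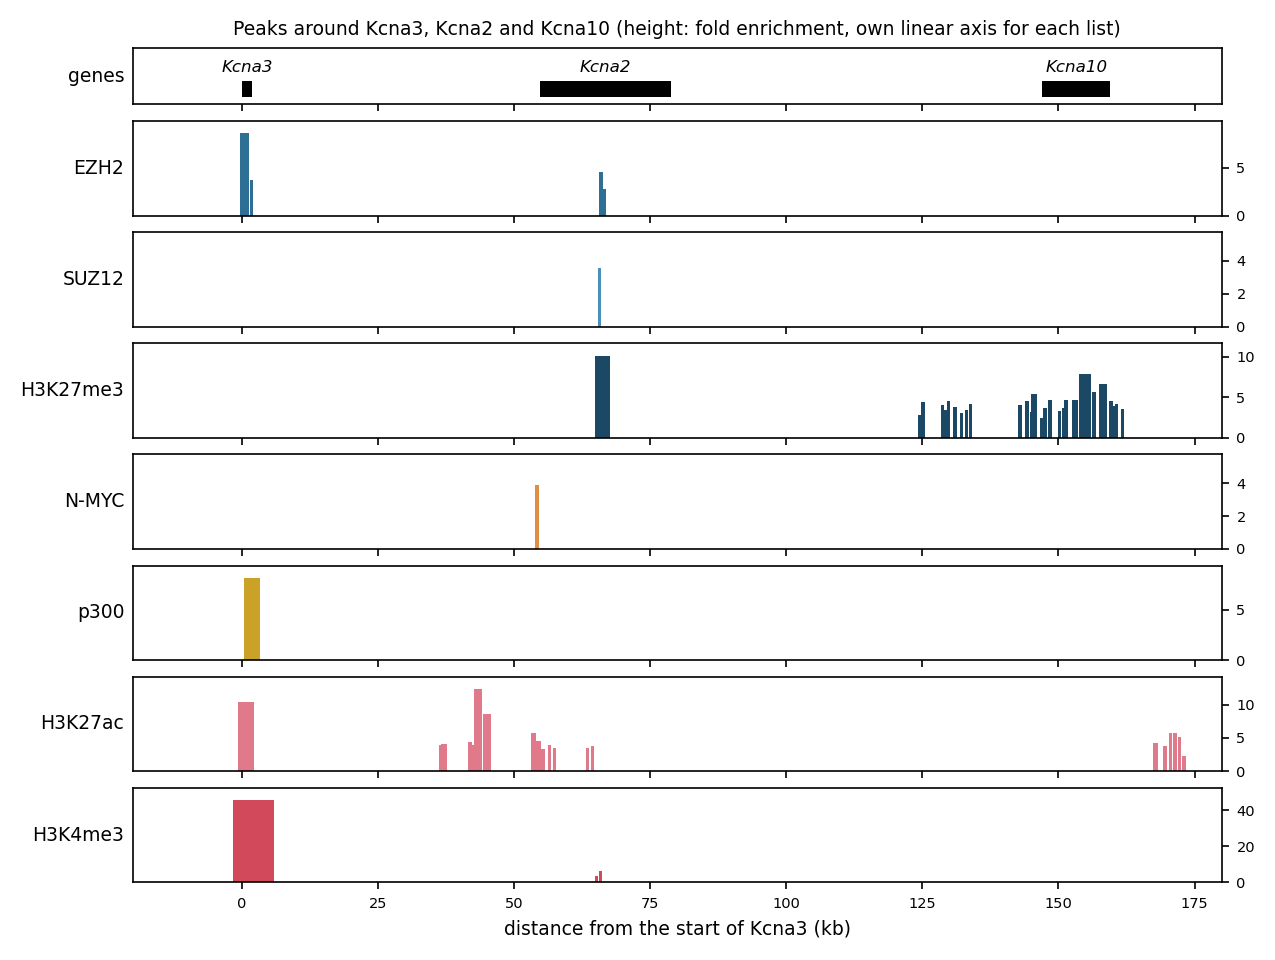
Peaks of the 7 lists by distance (kb, x axis) from the start of Kcna3, with bar height giving fold enrichment on a separate linear axis for each list and the 3 genes drawn on top. H3K4me3 at 45.7, p300 at 8.13 and EZH2 at 8.60 sit on Kcna3, and H3K27me3 begins at Kcna2 and covers much of Kcna10.

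Around Kcnn4 active marks were denser. Within 50 kb of its start, outside the window, there were 29 H3K27ac peaks, 6 p300 peaks, 6 H3K4me3 peaks and 4 N-MYC peaks. The strongest p300 peak there, 6.26, had its summit 3.30 kb downstream of the start, inside the gene. H3K27me3 had 11 peaks in the same span, the nearest with its summit at -15.8 kb from the start. The strongest of them, 13.1, had its summit at -35.2 kb, near 1 EZH2 and 1 SUZ12 peak.

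Over whole gene bodies, 73 of 94 members had an H3K27me3 peak (77.7%, 68.2 to 84.9, against 30.1% of all genes). SUZ12 and EZH2 each reached 51 members (54.3%, 44.2 to 64.0, against 14.9% and 47%). N-MYC was in 17 bodies (18.1%, against 35.3%), p300 in 15 (16.0%, against 42%), H3K27ac in 38 (40.4%, against 57.9%) and H3K4me3 in 25 (26.6%, against 54%). Away from the starts, leaving out the bases within 1 kb of one, N-MYC was in 13.0% of the 69 bodies with a listed start and in 8.03% of all. Members are longer, with a median of 32.7 kb against 17.2 kb, and a longer gene has more room for a peak. Within genes of up to 10 kb, 14 of 21 members had H3K27me3 (66.7%) against 20.9% of all genes, and above 100 kb 20 of 23 did (87.0%) against 60.5%. The median share of the body covered by H3K27me3 was 10.3% in members and 0% over all genes, and 23 members had more than 50% covered (24.5%, against 7.31%).

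The most covered members were short genes. Kcna7 and Kcne1l, a regulatory subunit on the X chromosome, were covered in full by H3K27me3, Kcnk4, a mechanically gated channel of neurons, to 98.7%, and Kcnk15 to 96.1%. The lymphocyte channels were the counterpart. The 1968 bp of Kcna3 lay entirely under H3K27ac and H3K4me3 peaks, with 84.2% under EZH2 and 79.2% under p300. The 15387 bp of Kcnn4 were covered to 97.1% by H3K27ac, 44.96% by H3K4me3, 34.2% by p300 and 14.1% by EZH2, and no H3K27me3 or SUZ12 peak lay in either gene.

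Among the 4 longest members, Kcnip4, a calcium sensor of Kcnd-type channels, had no peak of any list in 1136 kb. Kcnma1 held 41 separate H3K27me3 peaks over 713 kb that covered 3.29% of it. Kcnq5 had no H3K27me3 over 564 kb, and the peaks of its 5 lists covered between 0.230 and 0.520% of the body. Kcnd2, a channel of dendrites, had 1 H3K27me3 peak of 15.2 at its start over 514 kb. In all, 10 of the 94 members had no peak of any list in the body, and this share was not taken over all genes.

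The 25 members without a listed start were read at both gene ends, since their strand was not listed. H3K27me3 reached an end of 17 of them (27.6% of all genes read in this way), SUZ12 14 (13.8% of all) and EZH2 13, which is near the 44.3% of all. H3K27ac reached 5 (52.4% of all), H3K4me3 2 (50% of all), and N-MYC and p300 1 each (32% and 38.4% of all). Polycomb marks alone were found at 15 (17.8% of all), active marks alone at 3 (Kcnd1, Kcnk6 and Kcnu1; 45.7% of all), both at 2 (9.92% of all) and neither at 5 (26.6% of all). The 1 gene with N-MYC and p300 was Kcnab3, which also had H3K27me3 at 11.3. The strongest values were those of Kcnh3, a neuronal voltage-gated channel, with EZH2 at 18.9, SUZ12 at 16.7 and H3K27me3 at 22.4, above each member with a listed start. Kcnh3, Kcnab3, Kcnd1, Kcnk6 and Kcnu1 were chosen after their values were seen.

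The genes that act with these channels in lymphocytes were read from a list of 23 genes of calcium entry, calcineurin signalling and the known regulators of both channels. All 17 with a listed start had active marks only (background 47.4%), with H3K4me3 from 14.8 to 42.1 and H3K27ac from 5.88 to 23.7. N-MYC was at 16 of these starts, p300 at 17 and EZH2 at 15. Over all genes with active marks only, the shares were 65.9% for N-MYC, 80.3% for p300 and 68.5% for EZH2. Starts sorted as active marks only have no SUZ12 or H3K27me3 peak by definition. Orai1, the calcium channel itself, had N-MYC at 7.47, p300 at 5.27, H3K27ac at 8.52 and H3K4me3 at 24.6 without EZH2. Stim1, its calcium sensor, had EZH2 at 4.64, N-MYC at 3.62, H3K27ac at 16.9 and H3K4me3 at 35.5. The H3K4me3 values of Kcna3 (45.7) lay above this list and that of Kcnn4 (40.7) within it.

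Calcium and sodium channel genes were read in the same way, and the share over all genes is 24.3% for H3K27me3, 46% for EZH2, 12.8% for SUZ12, 52.1% for H3K4me3 and 34% for N-MYC. Of 20 voltage-gated calcium channel genes (Cacn) with a listed start, 15 had H3K27me3, 11 EZH2, 11 SUZ12, 4 H3K4me3 and 1 N-MYC. Of 10 sodium channel genes (Scn), 7 had H3K27me3, 2 EZH2 and 2 SUZ12, and none had any of the 4 other lists.

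The cell type given by the labels was read from marker genes. All 6 T cell markers with a listed start (Cd3d, Cd3e, Cd3g, Cd247, Lck and Zap70) had active marks only, with H3K4me3 from 24.3 to 36.3. Among markers of B cells, myeloid cells, thymic epithelium, neurons, and heart and muscle, 15 had a listed start, of which 5 had active marks only and 1, Epcam, had both. H3K4me3 was at 3 of the 15 (4.74 to 19.3), and the part of other cells in the values above was not tested. Lists held from 9798 (N-MYC) to 123056 (H3K27me3) peaks, and the number of reads is unknown. The window held a part of another protein-coding gene for 5 members, and for 13 members the outer end of the gene lay over 1 kb from a listed start, with another state there in 6.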

How the data were processed

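ChIPmentation of mouse MYCN-driven T cell lymphoma cells gave 7 deposited peak lists. FastQC, Bowtie2, SAMtools, MACS2 and deepTools, with builds mm10 and GRCm38, are named in the submitters' processing notes; roles, versions, pooling and whether the inputs served as controls are not given in the sources used here. The deposited files have no header, so columns were read from the narrowPeak layout. The fold enrichment of each deposited peak is a linear ratio, used here without change. The authors give p-values and q-values as −log10 values, and the smallest −log10 q of the lists ran from 2.00 to 2.08. A deposited whole-number score was not used in any result. The other deposited columns hold positions.

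Peaks were joined to RefSeq genes of GRCm38.p6 by overlap of at least 1 bp with 1 kb either side of a listed start, or with the gene body. As a check of the build, 50.0% of H3K4me3 summits lay within 1 kb of a listed start, and 2.44 to 3.62% did when shifted by 5 to 1000 kb. The plan had assumed a start for each member, and the 25 without one were read at both ends. Where a window held several peaks, the highest fold was taken. No test between groups was made, since each antibody had 1 library; shares have 95% Wilson intervals. The members, lists and comparisons were chosen with earlier results of these data known. Genes named with values were Kcna3 and Kcnn4, then by rule those of highest N-MYC, EZH2 or H3K4me3 fold within a combination of peaks, the 4 longest and the 4 most covered by H3K27me3, 23 in all, and further genes as examples chosen after their values were seen. The steps were tested on simulated data with Python 3.11.15, numpy 2.4.6 and pandas 2.3.3. Alternatives changed the window, the peak threshold, the list lengths, the starts and the members.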

Additional observations from a re-analysis of the deposited data

How the results depend on the processing

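No paired analysis was possible because each antibody had 1 library and the results come from no test. Of 160 values recomputed for 20 results under other settings, 154 lay within the 95% interval of the reported share or within 1.5 times the reported count. The 6 others were these. With the summit required in the window, H3K27me3 was at 46.4% of member starts and 17.3% of all. With every list limited to its 9798 most significant peaks, H3K27ac was at 5.80% (35.6% of all genes), H3K4me3 at 10.1% (45.9%), both kinds of marks at 2.90% (2.60%) and neither at 34.8% (39.5%). Without the bases within 1 kb of a start, in the 69 members with one, EZH2 was in 39.1% of gene bodies, against 17.6% of all genes. Members and all genes changed sides in 2 comparisons, EZH2 at the most upstream listed start only (42.0% of members, 44.9% of all genes) and N-MYC in bodies without the start (13.0% and 8.03%). The settings that used only the most upstream start, added the outer gene end, left out 5 members with another gene in the window, or kept the members with a listed start were chosen after seeing the data, as were some for Kcna3 and Kcnn4. Kcna3 had peaks in 3 or 4 lists and Kcnn4 in 4 or 5 under the settings run. The depth of the libraries is unknown, and a weak site can be missing from a short list.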
